A study of Mus musculus with 384 samples.

Results

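The genes examined here encode cation channels that set the pacemaking of neurons: the hyperpolarization-activated channels *Hcn2*, *Hcn3*, and *Hcn4*, the sodium leak channel *Nalcn*, and the canonical transient receptor potential channels *Trpc4*, *Trpc5*, *Trpc6*, and *Trpc7*. They were chosen by symbol, and all 8 were found in the count table, among 25680 genes with at least 1 read in the cells used. Levels were taken from the 209 of 384 single cells with at least 500000 reads counted on genes. The cells came from the midbrain and hypothalamus of 8 DAT-IRES-Cre;Ai9 mice (3 labelled female, 5 labelled male, labelled P24–P36), in which the dopamine transporter locus drives Cre and Cre turns on tdTomato, so every mouse carried both alleles and none was treated. tdTomato-positive cells were sorted and captured with the Fluidigm C1 system, which makes cDNA of 1 cell per chamber, with 1 run per mouse, so that a mouse and its run cannot be told apart. The driver marks a cell that has at some time transcribed *Slc6a3*, the dopamine transporter gene, and not a cell that still does. Cells were grouped by whether they held at least 10 reads of *Aldh1a7* (74 cells positive, 135 negative) or of *Neurod6* (49 positive, 160 negative), and by their level of *Slc6a3*.

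HCN channels open when a neuron is hyperpolarized and carry the inward current that is seen as a sag in voltage recordings of dopamine neurons; cyclic AMP shifts the opening of HCN2 and HCN4 but has little effect on HCN3, and TRIP8b, the product of *Pex5l*, takes part in the traffic of HCN channels. NALCN passes a steady inward sodium leak that helps dopamine neurons to fire on their own, and it works in a complex with UNC79, UNC80, and FAM155A. TRPC channels are nonselective, calcium-permeable cation channels opened downstream of receptors that act through Gq and phospholipase C. *Trpc4* and *Trpc5* belong to one subfamily of them, and *Trpc6* and *Trpc7*, whose products are opened by diacylglycerol, to another.

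The retained cells held a median of 780466 reads (range 500672–1544810), and a mouse gave 12–45 of them. Summed over the cells of a mouse, 10 dopamine neuron markers (*Th*, *Slc6a3*, *Slc18a2*, and others) reached 9282–17458 CPM (reads per 1000000 reads counted on genes), and 205 of the 209 cells held at least 10 reads of *Slc6a3*. *Th*, the gene of the rate-limiting enzyme of dopamine synthesis, was under 1000 CPM in 28 cells, which were found in all 8 mice. The summed level per mouse was 2.82–1010 CPM for 3 GABA neuron markers, 40.9–303 CPM for 3 glutamate neuron markers (*Slc17a7* at 0), 0–555 CPM for 5 astrocyte markers, 19.4–2082 CPM for 5 oligodendrocyte markers (*Mog* at 0), 0.235–2.94 CPM for 5 microglia markers (*C1qa* and *Aif1* at 0), 0–0.678 CPM for 4 endothelial markers (*Cldn5* and *Kdr* at 0), and 159–3848 CPM for 7 genes of the response to dissociation. The counts are reads without molecular identifiers. Each interval printed beside a share treats the 209 cells as independent draws. It therefore holds counting error alone and leaves out the spread between the 8 mice.

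Of *Hcn2*, *Hcn3*, and *Hcn4*, *Hcn3* was read the most. Per length, as reads per kilobase of exon and 1000000 reads on genes (RPKM, mean over mice ± SD, n = 8 here and for the levels that follow), *Hcn3* stood at 6.39 ± 3.52, *Hcn4* at 0.348 ± 0.285, and *Hcn2* at 0.229 ± 0.184. *Hcn3* lies on chromosome 3 (GRCm38, 89146775–89160284, minus strand) and held 4357 reads. Its level per mouse was 7.55 CPM at the lowest, 22.6 CPM at the median, and 49.5 CPM at the highest, and 81 of 209 cells held at least 10 reads (38.8%, exact 95% binomial interval 32.1–45.7%). It was therefore present in every mouse and in a minority of cells at that limit. *Pklr*, which is in the count table too, overlaps it on the opposite strand. The libraries do not mark the strand and the authors dropped reads that fell on several genes, so reads of bases shared by exons of both would count for neither. *Hcn2*, the cyclic AMP-sensitive gene of the family that is widespread in brain, had 145 reads in all, with 0.235–1.61 CPM per mouse, and 4 cells reached 10 reads (1.91%, interval 0.524–4.83%). *Hcn4*, the sinoatrial pacemaker channel, had 335 reads, with 0.375–5.64 CPM per mouse, and 10 cells reached 10 reads (4.78%, interval 2.32–8.62%). At this depth, most cells gave no read of either gene: at least 1 read was counted in 39 cells for *Hcn2* and in 38 cells for *Hcn4*.

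*Nalcn* (chromosome 14, 123275678–123627330, minus strand) had the highest level per length among the 8 genes, at 15.9 ± 3.38 RPKM, and the smallest spread between mice, with a coefficient of variation of 21.2%. It gave 90.0 CPM in the lowest mouse, 106 CPM at the median, and 159 CPM in the highest, and 179 of 209 cells held at least 10 reads (85.6%, interval 80.1–90.1%). The genes of its complex were counted in all mice, at 32.4 ± 7.25 CPM for *Unc79*, 31.6 ± 7.03 CPM for *Unc80*, and 97.4 ± 32.0 CPM for *Fam155a*.

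Among the TRPC genes, *Trpc6* (chromosome 9, 8543867–8680752, plus strand) and *Trpc4* (chromosome 3, 54155584–54318471, plus strand) led per length, with 12.9 ± 6.71 and 9.19 ± 5.45 RPKM. *Trpc6* gave 17.1 CPM in the lowest mouse, 67.9 CPM at the median, and 110 CPM in the highest, and 123 cells held at least 10 reads (58.9%, interval 51.9–65.6%). *Trpc4* gave 15.1, 29.5, and 74.1 CPM at the same points, and 73 cells held at least 10 reads (34.9%, interval 28.5–41.8%). *Trpc5* (chromosome X, 144377327–144688180, minus strand) stood at 2.74 ± 4.05 RPKM, an SD larger than its mean. *Trpc5os* and the pseudogene *Gm15071* overlap it on the opposite strand and the pseudogene *Mageb16-ps1* on its own, *Gm32014* overlaps *Trpc6* on the opposite strand, and *Gm49297* overlaps *Nalcn* on its own. *Mageb16-ps1* had counts of its own, as *Pklr* did, and for the others reads of any shared bases cannot be told apart. The level of *Trpc5* was 52.4 CPM in mouse 6 and 0.990–9.30 CPM in the other 7 mice, and the mean over mice was 11.4 CPM with mouse 6 and 5.54 CPM without it. *Trpc5* reads were gathered in few cells: 18 cells held at least 10 reads (8.61%, interval 5.18–13.3%), and the 10 cells with the most reads gave 87.7% of the 1663 reads. *Trpc7* (chromosome 13, 56773098–56895968, minus strand) stood at 0.962 ± 2.24 RPKM, and 7 cells held at least 10 reads (3.35%, interval 1.36–6.78%). A single cell of mouse 1 gave 243 of the 434 *Trpc7* reads, and the mean level was 3.60 CPM with mouse 1 and 0.650 CPM without it. *Trpc1*, which was not among the genes chosen, stood at 3.28 ± 2.16 RPKM.

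**Figure D1:**
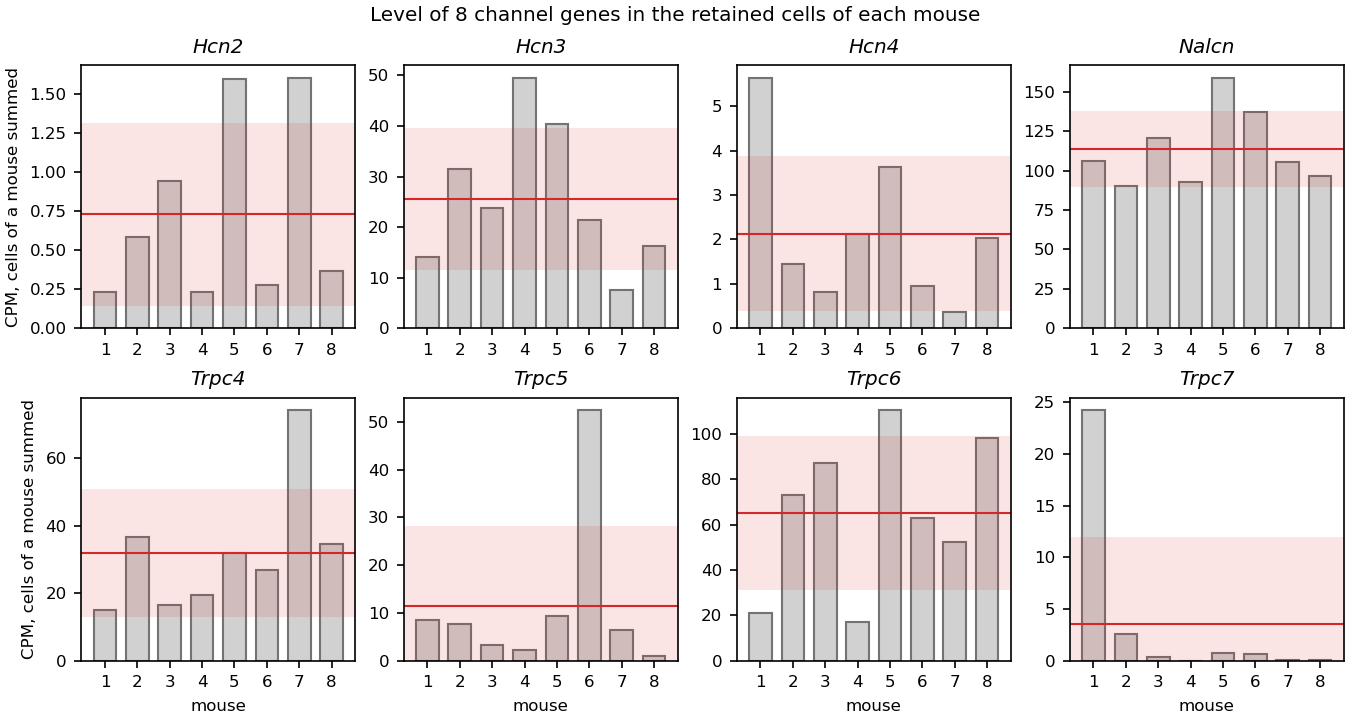
Level of each channel gene in each mouse, as reads per 1000000 reads on genes (CPM, linear axes that differ between panels) of the summed retained cells. The red line and band are the mean ± SD over 8 mice. *Nalcn* varied from 90.0 to 159 CPM, while mouse 6 stood apart for *Trpc5* (52.4 CPM) and mouse 1 for *Trpc7* (24.2 CPM).

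In order of mean level per length, the genes ran *Nalcn*, *Trpc6*, *Trpc4*, *Hcn3*, *Trpc5*, *Trpc7*, *Hcn4*, *Hcn2*. The range over mice of each gene overlapped that of the next gene in the order. *Nalcn* exceeded *Trpc6* in 5 of 8 mice, *Trpc6* exceeded *Trpc4* in 5, *Trpc4* exceeded *Hcn3* in 5, *Hcn3* exceeded *Trpc5* in 7, *Trpc5* exceeded *Trpc7* in 7, *Trpc7* exceeded *Hcn4* in 3, and *Hcn4* exceeded *Hcn2* in 6, so no neighbouring pair held its order in all mice. The place of *Trpc7* rested on mouse 1, without which it stood at 0.174 RPKM, under *Hcn4* (0.266 RPKM) and *Hcn2* (0.251 RPKM). The order of the last 3 genes also depended on the cells taken: with cells of at least 750000 reads it was *Hcn2* (0.201 RPKM), *Hcn4* (0.164 RPKM), and *Trpc7* (0.10 RPKM), with the first 5 genes in the order given. These levels assume that reads spread over the whole exon length, which oligo-dT priming may not give.

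Single cells mostly held reads of 2 or 3 of the 8 genes. At a limit of 10 reads, 83 cells held 2 of the genes, 67 held 3, 20 held 4, and 8 held none, and the most was 6, in 1 cell. The number of genes held had a Spearman correlation of 0.14 with the number of reads of the cell, across 209 cells. *Nalcn* was present in 72 of 81 *Hcn3* cells (88.9%), in 66 of 73 *Trpc4* cells (90.4%), and in 110 of 123 *Trpc6* cells (89.4%), against 85.6% of all cells. *Trpc4* and *Trpc6* shared 38 cells, which is 52.1% of *Trpc4* cells and 30.9% of *Trpc6* cells. Among all cells, 58.9% held *Trpc6* and 34.9% held *Trpc4*. *Trpc4* and *Trpc5* shared 6 cells, 33.3% of the *Trpc5* cells, which is near the share of *Trpc4* in all cells. No cell held both *Trpc5* and *Trpc7*. They were found in 18 and 7 of 209 cells, too few for the lack of overlap to be read as exclusion. Cells of a mouse share their capture run, and these counts are given without a test.

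**Figure D2:**
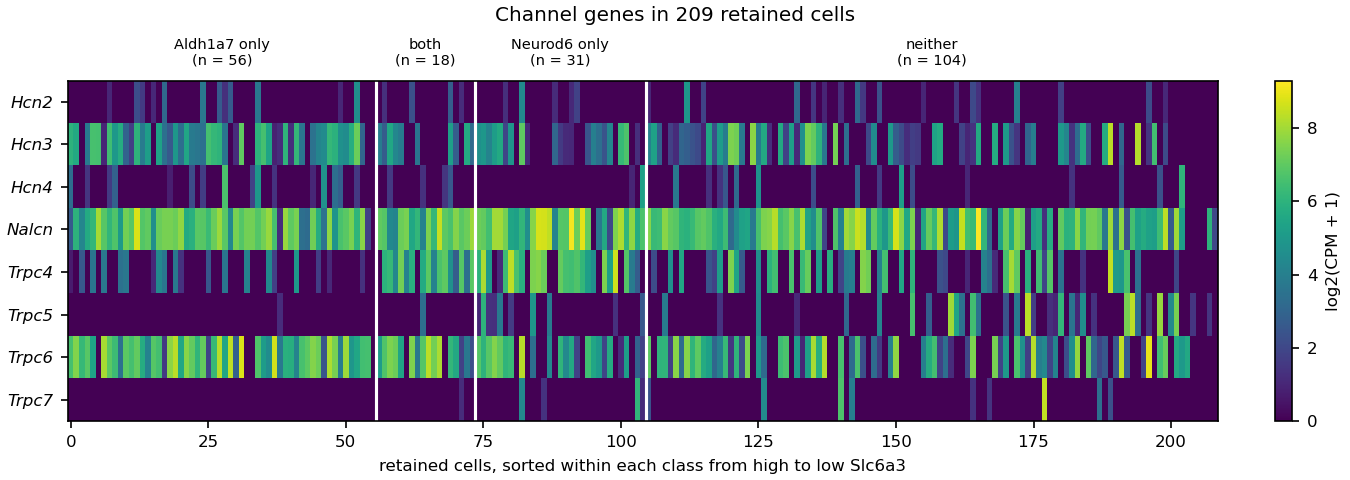
log2(CPM + 1) of each channel gene (rows) in 209 retained cells (columns), grouped by reads of *Aldh1a7* and *Neurod6* (positive from 10 reads) and sorted within each group by *Slc6a3*. *Nalcn* was read across the groups, *Trpc6* filled most of the 56 cells with *Aldh1a7* only, *Trpc4* most of the 49 cells with *Neurod6*, and *Trpc5* reads lay mainly among the 104 cells with neither.

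*Aldh1a7* codes for an aldehyde dehydrogenase closely related to *Aldh1a1*, a marker of ventral nigral dopamine neurons, and reads shared by both genes had been left out of the counts. Of genes known from nigral dopamine neurons, *Aldh1a1* was at 6349 ± 1553 CPM in positive and 1076 ± 616 CPM in negative cells (n = 7 mice with at least 3 cells in each class), *Sox6* at 61.0 ± 32.9 and 18.1 ± 9.60 CPM, and *Ndnf* at 75.7 ± 83.0 and 31.5 ± 27.7 CPM, higher in positive cells in 7, 7, and 4 of 7 mice. Of genes known from the ventral tegmental area, *Calb1* was at 278 ± 267 and 921 ± 273 CPM (lower in 7 mice), *Otx2* at 25.0 ± 35.9 and 30.7 ± 19.7 CPM (lower in 5), and *Grp* at 117 ± 93.7 and 72.7 ± 56.5 CPM (higher in 5). Which pacemaker channels differ between these kinds of dopamine neuron was the question of the comparison. The reads of a class were summed per mouse and tested across 12781 genes with edgeR's quasi-likelihood test and Benjamini-Hochberg adjustment, with a threshold of 0.05.

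*Trpc5* was lower in *Aldh1a7*-positive cells, and was the single gene called among the 6 channel genes that passed the filter on low counts. It passed that filter through its reads in *Aldh1a7*-negative cells, on which the call and the separation of the classes rest. Over all genes tested, 0.407% were called, and 0.266% were called lower. In *Aldh1a7*-positive cells *Trpc5* had 7 reads in 74 cells: it was at 0 in mice 2, 5, 6, 7, and 8, at 0.302 CPM in mouse 3, and at 0.385 CPM in mouse 4. In *Aldh1a7*-negative cells of the same mice it had 1546 reads in 117 cells, with 1.41 CPM in the lowest mouse, 8.22 CPM at the median, and 71.0 CPM in the highest, mouse 6. The classes did not overlap, as was the case for 0.516% of the genes tested in this direction, and *Trpc5* was lower in 7 of 7 mice, as were 5.02% of genes. The log2 fold change was −7.17 ± 1.20 (SE), with an adjusted p of 0.0129 by edgeR's quasi-likelihood test. With 5 mice at 0 in one class, the size of this fold change depends on the prior count of the fit. With cells called positive from 1 read of *Aldh1a7*, the log2 fold change was −3.49 (adjusted p = 0.207). The call was lost with the mouse as a block (log2 fold change −7.09, adjusted p = 0.0572, with 0.227% of genes called). It was also lost without mouse 2 (adjusted p = 0.0637), mouse 5 (0.0553), or mouse 6 (0.0510). With DESeq2, which called 3.42% of genes, the adjusted p was 5.38e-09. In data simulated from edgeR's dispersion estimates, without a mouse shared by both classes, DESeq2 made false calls more often than its threshold allows. On another scale, the mean over cells of log2(CPM + 1), the difference was −1.13 (adjusted p = 0.00546, limma). Within lane 1 the log2 fold change was −5.69 (2 mice, adjusted p = 0.768) and within lane 2 it was −8.42 (5 mice, adjusted p = 0.0894).

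No *Aldh1a7*-positive cell reached 10 reads of *Trpc5* (0 of 74, where 3 cells, the limit taken here for a count of 0, would be 4.05%), against 18 of 135 negative cells. Of the 135 negative cells, 45 held 1 or more reads of *Aldh1a7*, as did 4 of those 18, with 8 reads at most. Averaged over the 7 mice the share was 0% against 11.0% ± 9.32 (SD), lower in 5 mice and equal in 2. A two-sided exact permutation test, which flips the sign of the difference of each mouse, gave p = 0.0625 (smallest possible p 0.0156). With *Trpc5* counted as present from 1 read the share was 4.08% against 33.2%, lower in 7 of 7 mice (exact permutation p = 0.0156). In the same test 2.7% of the 12781 genes were lower in positive cells at a p under 0.05 when counted from 10 reads, and 1.76% when counted from 1 read. This was 1 of 24 such tests, whose p-values are given unadjusted. The cells of the *Aldh1a7*-negative class differed from the positive ones in more than *Aldh1a7*. All 74 positive cells reached 1000 CPM of *Th*, while 28 of the 135 negative cells did not, and those 28 cells held 1070 of the 1663 *Trpc5* reads. Among cells that reached 1000 CPM of *Th*, *Trpc5* had 586 reads in 107 *Aldh1a7*-negative cells (6.87 CPM) and 7 reads in the positive ones (0.115 CPM), and it did not pass the filter on low counts in a fit to those cells. The 5 oligodendrocyte markers summed to 34.0–5262 CPM per mouse in negative cells and to 0–50.2 CPM in positive cells (4 of 5 with reads in each class), the 3 GABA neuron markers to 2.20–1331 and 0.787–255 CPM, the 3 glutamate neuron markers to 62.1–475 CPM and up to 213 CPM, the 5 astrocyte markers to 0–61.1 and 0–1.11 CPM, and the 7 dissociation genes to 166–1570 and 116–320 CPM. A median of 8816 genes was detected in negative cells and of 9778 in positive cells. The part of these differences in the *Trpc5* result was not tested.

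The 18 *Trpc5* cells came from 6 mice. Their median *Th* level was 1647 CPM, against 6514 CPM in the other 191 cells, and their median *Slc6a3* level was 909 CPM against 3105 CPM. *Slc17a6*, the gene of the vesicular glutamate transporter VGLUT2, had at least 10 reads in 16 of the 18 cells (88.9%) and in 97 of the other 191 (50.8%). *Calb1*, a calcium buffer gene, was found in 17 of the 18 (94.4%) against 72.8%, and *Sox6*, a transcription factor of nigral neurons, in none of the 18 against 39.8%. The cell with the most *Trpc5* reads, from mouse 6, held 424 of that mouse's 762 reads, with 118 CPM of *Th* and 607 CPM of *Slc17a6*.

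*Trpc6* was found in more of the *Aldh1a7*-positive cells. At least 10 reads were counted in 60 of 74 positive cells and in 63 of 135 negative cells, and per mouse the share was 72.5% ± 18.4 against 48.1% ± 19.5 (n = 7). The share was higher in positive cells in 7 of 7 mice, by 24.4 percentage points ± 16.0 (SD), with p = 0.0156 in the exact sign-flip permutation test, the smallest p that 7 mice allow. In the same test 7.43% of the 12781 genes were higher in positive cells at a p under 0.05, and the positive cells had a median of 9778 genes detected against 8816. With each cell thinned to 500000 reads the difference was 20.6 points (7 of 7 mice, exact permutation p = 0.0156), and 5.84% of genes were higher. With *Trpc6* counted as present from 1 read the difference was 13.8 points (exact permutation p = 0.266). The summed level of *Trpc6* was 16.2 CPM in the lowest mouse, 101 CPM at the median, and 180 CPM in the highest in positive cells, and 17.5, 64.5, and 91.7 CPM in negative cells. The classes overlapped, positive cells were higher in 5 of 7 mice, and the change was not called (log2 fold change 0.87 ± 0.40, adjusted p = 0.434, edgeR).

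The other 4 genes tested did not pass the threshold. Before adjustment, *Trpc5* (p = 1.61e-05), *Hcn4* (0.0395), and *Trpc6* (0.0433) were under 0.05 in edgeR's quasi-likelihood test, as were 11.0% of all genes. *Trpc4* had 0, 13.0, and 63.3 CPM (lowest, median, and highest mouse) in positive cells and 21.7, 34.9, and 77.0 CPM in negative cells, and was lower in positive cells in 6 of 7 mice (log2 fold change −0.90 ± 0.67, adjusted p = 0.684 with edgeR). *Hcn4* had 0.504–6.54 CPM in positive and 0–2.38 CPM in negative cells (log2 fold change 1.85 ± 0.83, adjusted p = 0.415 with edgeR), from 170 and 93 reads. *Nalcn* averaged 108 ± 25.2 CPM in positive and 120 ± 36.1 CPM in negative cells, and *Hcn3* 29.5 ± 16.9 and 27.0 ± 17.4 CPM, with log2 fold changes of −0.01 ± 0.21 and 0.29 ± 0.51 (adjusted p 0.998 and 0.894, edgeR). *Hcn2* and *Trpc7* did not pass the filter: *Hcn2* had 63 reads in positive and 79 in negative cells of the 7 mice, and *Trpc7* had 1 read in positive and 124 in negative cells.

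**Figure D3:**
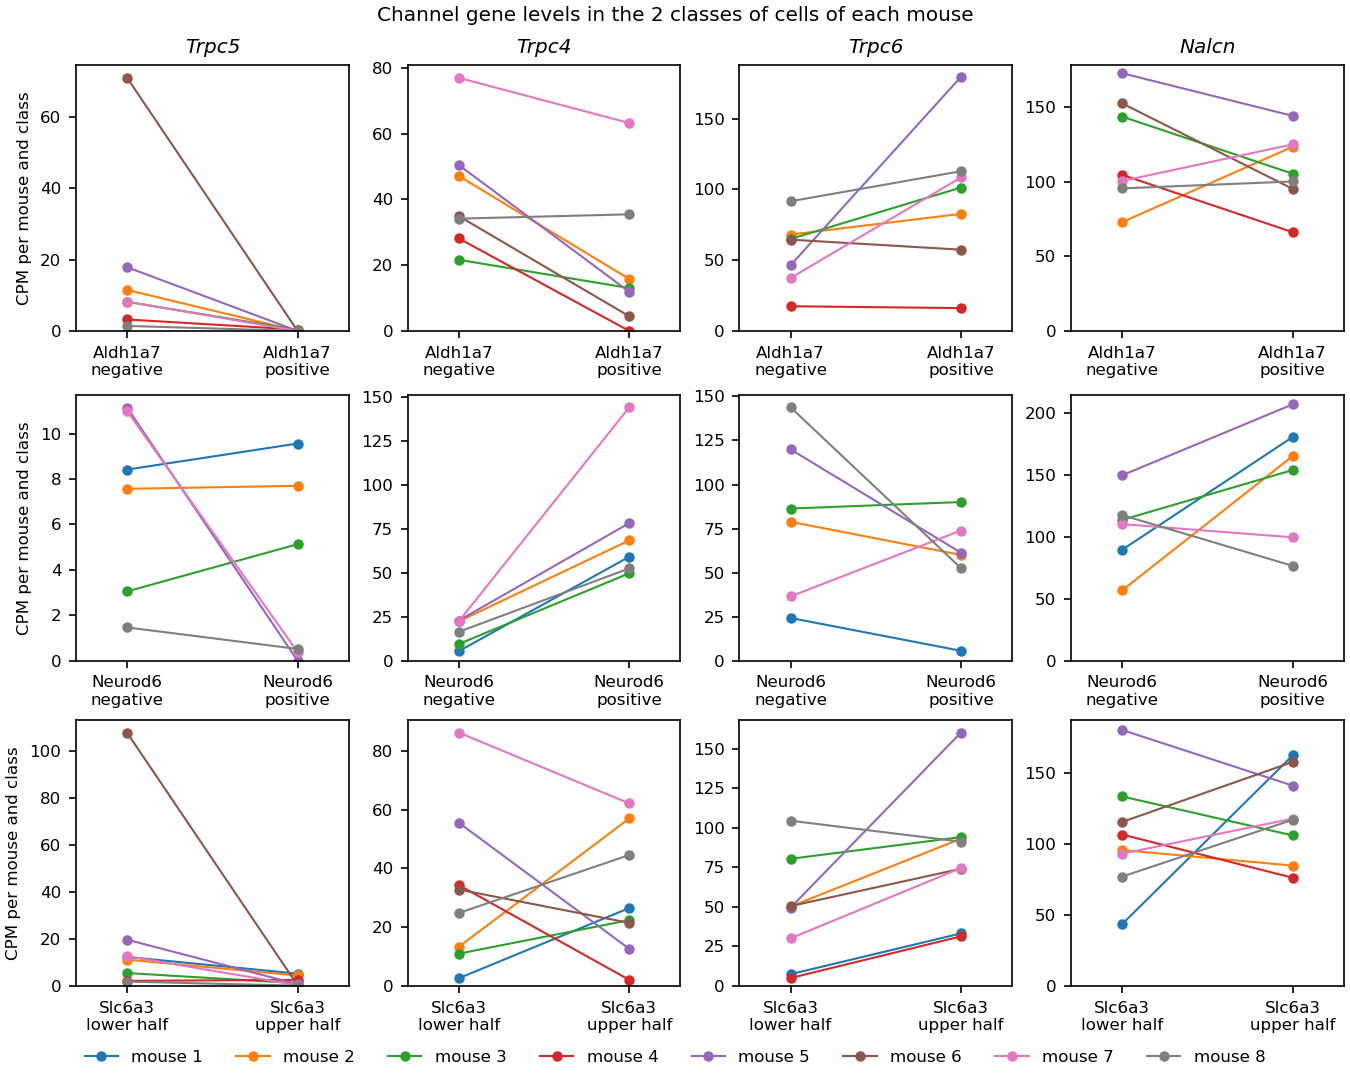
CPM of *Trpc5*, *Trpc4*, *Trpc6*, and *Nalcn* in both classes of cells of each mouse (linear axes, 1 colour and line per mouse) for *Aldh1a7* (7 mice), *Neurod6* (6 mice), and *Slc6a3* above against at or below the median of the mouse (8 mice). *Trpc5* was lower in *Aldh1a7*-positive cells in all 7 mice, and *Trpc4* was higher in *Neurod6*-positive cells in all 6 mice.

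*Neurod6*, a basic helix-loop-helix transcription factor gene, is expressed in part of the ventral tegmental dopamine neurons. The study recorded membrane properties of neurons labelled through the *Neurod6* locus, and the comparison asked which of the channel genes differ in *Neurod6*-positive cells. In the 6 mice with at least 3 cells in each class, *Aldh1a1* was higher in *Neurod6*-positive cells in 6 mice (4935 ± 1006 against 1793 ± 1504 CPM), while *Sox6* (3.70 ± 4.70 against 43.3 ± 21.4 CPM) and *Ndnf* (18.7 ± 23.1 against 72.6 ± 60.2 CPM) were lower in 6. *Otx2* (78.0 ± 54.3 against 10.5 ± 12.8 CPM) and *Grp* (262 ± 126 against 32.3 ± 19.9 CPM) were higher in 6 mice, and *Calb1* (766 ± 296 against 725 ± 273 CPM) in 3.

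*Trpc4* had the largest log2 fold change among the 5 channel genes tested. Its level in *Neurod6*-positive cells was 49.7 CPM in the lowest mouse, 63.8 CPM at the median, and 144 CPM in the highest, and in negative cells 5.45, 19.4, and 22.8 CPM. The classes did not overlap, as for 0.27% of the 12605 genes tested in this direction, and the positive cells were higher in 6 of 6 mice, as for 2.28% of genes. The mean was 75.3 ± 35.3 CPM against 16.5 ± 7.50 CPM, and the log2 fold change 2.25 ± 0.41, which missed the threshold after adjustment over all genes (unadjusted p = 6.93e-05 and adjusted p = 0.0862 with edgeR's quasi-likelihood test). None of the 5 channel genes tested was called by edgeR (1 at an unadjusted p under 0.05, as were 6.20% of all genes), while 0.0555% of all genes were. DESeq2, which called 2.13% of the genes it tested, gave *Trpc4* an adjusted p of 4.33e-06 and called it alone among the 8 channel genes. Across the alternatives tried, the log2 fold change of *Trpc4* stayed between 1.72 and 4.34. Within lane 1 it was 2.29 and within lane 2 it was 2.22, with 3 mice in each.

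The share of cells with *Trpc4* differed in the same direction. At least 10 reads of *Trpc4* were counted in 37 of 49 *Neurod6*-positive cells and in 36 of 160 negative cells, so that about as many *Trpc4* cells were *Neurod6*-negative as positive. Per mouse the share was 71.9% ± 19.1 against 21.9% ± 6.05, a difference of 50.0 points ± 14.9 (SD, n = 6), higher in 6 of 6 mice, with p = 0.0312 in the exact sign-flip permutation test, the smallest p that 6 mice allow, which 2.09% of genes reached in this direction. Against *Aldh1a7*-positive cells, with the cells positive for both genes left out, *Trpc4* was higher in *Neurod6*-positive cells by a log2 fold change of 4.34 ± 0.72 (4 mice, adjusted p = 0.0578 with edgeR, 0.11% of genes called). Oligodendrocyte markers summed to 18.6–131 CPM per mouse in *Neurod6*-positive cells and 19.3–2511 CPM in negative cells (4 of 5 with reads in each class), astrocyte markers to 0–3.61 and 0.186–676 CPM, GABA neuron markers to 2.47–333 and 27.8–1694 CPM, glutamate neuron markers to 64.4–479 and 36.1–258 CPM, and dissociation genes to 72.2–667 and 177–4547 CPM. The part of these differences in the *Trpc4* values was not tested. With cells of at least 1000 CPM of *Th* alone, a choice made after the data were seen, the log2 fold change of *Trpc4* was 2.06 (adjusted p = 0.108, edgeR).

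The promoters are shown for the TRPC genes whose level was called (*Trpc5*) or whose share of cells passed the exact test (*Trpc4* and *Trpc6*) in a comparison: 300 bases of RefSeq sequence (GRCm38.p6), from 250 bases before to 50 after an annotated start. The windows lie at chr3:54155807-54156106 (plus strand) for *Trpc4*, chrX:144688131-144688430 (minus strand) for *Trpc5*, and chr9:8543892-8544191 (plus strand) for *Trpc6*. Capitals mark any match, on either strand, to CAGCTG or CAGATG (forms of the E-box that basic helix-loop-helix factors bind), TATAAA (the TATA box), or AAGGTCA (bound by nuclear receptors), none of which overlapped another.
Trpc4: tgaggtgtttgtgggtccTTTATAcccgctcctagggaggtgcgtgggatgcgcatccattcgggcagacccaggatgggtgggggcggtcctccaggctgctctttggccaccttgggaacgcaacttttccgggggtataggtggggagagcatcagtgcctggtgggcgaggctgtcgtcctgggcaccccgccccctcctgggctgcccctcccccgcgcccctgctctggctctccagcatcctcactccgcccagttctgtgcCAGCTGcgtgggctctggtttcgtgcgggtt
Trpc5: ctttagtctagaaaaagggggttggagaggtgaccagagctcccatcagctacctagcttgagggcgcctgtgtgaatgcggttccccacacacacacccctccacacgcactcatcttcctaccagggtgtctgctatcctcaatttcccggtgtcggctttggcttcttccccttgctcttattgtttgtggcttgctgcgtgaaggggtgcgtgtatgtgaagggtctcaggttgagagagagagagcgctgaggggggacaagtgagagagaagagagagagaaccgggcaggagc
Trpc6: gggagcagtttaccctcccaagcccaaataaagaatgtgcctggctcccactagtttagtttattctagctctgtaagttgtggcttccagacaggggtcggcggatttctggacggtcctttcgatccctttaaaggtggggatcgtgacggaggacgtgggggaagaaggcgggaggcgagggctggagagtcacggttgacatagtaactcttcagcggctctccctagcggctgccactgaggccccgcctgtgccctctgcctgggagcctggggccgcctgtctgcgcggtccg
The *Trpc4* window held CAGCTG and, on the reverse strand, TATAAA, and the *Trpc5* and *Trpc6* windows held no match. CAGCTG was found in 16.3% of 32851 promoter windows of this length, CAGATG in 17.2%, TATAAA in 13.6%, and AAGGTCA in 4.72%. Such a match describes letters and not a bound site. The G and C content was 66.0% for *Trpc4*, 55.7% for *Trpc5*, and 60.0% for *Trpc6*, against a median of 52.7% over all windows.

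The remaining genes tested by *Neurod6* status overlapped between the classes. *Nalcn* had 76.6, 159, and 207 CPM in positive cells and 56.8, 112, and 150 CPM in negative cells (lowest, median, and highest mouse), and was higher in positive cells in 4 of 6 mice (log2 fold change 0.53 ± 0.28, adjusted p = 0.866 with edgeR). At least 10 reads of *Nalcn* were counted in 95.0% of positive and 82.6% of negative cells per mouse, higher in 5 mice and lower in 1 (exact permutation p = 0.188). From 50 reads the shares were 72.5% and 55.0%, higher in 6 of 6 mice (exact permutation p = 0.0312, with 1.58% of all genes higher). From 10 reads with thinned cells, 3 mice were higher and 3 lower (exact permutation p = 0.469). *Hcn3* averaged 18.8 ± 6.93 CPM in positive and 22.7 ± 16.1 CPM in negative cells, higher in 3 mice and lower in 3 (log2 fold change −0.21 ± 0.54, adjusted p = 0.998 with edgeR). *Trpc5* averaged 3.88 ± 4.17 and 7.11 ± 4.04 CPM, and *Trpc6* 57.3 ± 28.5 and 81.6 ± 46.3 CPM (adjusted p 0.998 for each, edgeR). *Hcn2*, *Hcn4*, and *Trpc7* did not pass the filter on low counts. *Hcn4* had 42 reads in 47 positive cells, 38 of them in mouse 8, and 261 reads in 133 negative cells. *Hcn2* had 36 and 103 reads in the same classes, and *Trpc7* 74 and 350.

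*Slc6a3* was at 10 reads or more in all but 4 retained cells, so cells above the median *Slc6a3* level of their mouse (103 cells) were compared with those at or below it (106 cells), in 8 mice. The cells above the median, here the upper-*Slc6a3* cells, carried 4439 ± 789 CPM of *Slc6a3*, and the lower-*Slc6a3* cells 1164 ± 1054 CPM. No channel gene among 6 tested was called by edgeR (1 at an unadjusted p under 0.05, as were 8.88% of all genes), and 0.00803% of the 12452 genes tested were.

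*Trpc5* was 0.106, 0.943, and 5.24 CPM in upper-*Slc6a3* cells (lowest, median, and highest mouse) and 1.85, 11.8, and 108 CPM in lower-*Slc6a3* cells. The highest value belonged to mouse 6, the classes overlapped, and the upper-*Slc6a3* cells were lower in 7 of 8 mice. The log2 fold change was −3.50 ± 0.95, with an unadjusted p of 0.0017 and an adjusted p of 0.293 by edgeR, and DESeq2, with 1.62% of genes called, gave an adjusted p of 0.00541. Within lane 1 the log2 fold change was −1.36 (3 mice) and within lane 2 it was −6.51 (4 mice). Without mouse 6 the log2 fold change was the smallest of those leaving out a mouse, at −2.07. *Trpc5* had at least 10 reads in 5 of the 103 upper cells and in 13 of the 106 lower cells, with 0 mice higher, 5 lower, and 3 equal in the upper-*Slc6a3* cells (exact sign-flip permutation p = 0.0625, where 1.67% of genes were lower at a p under 0.05).

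*Trpc6* was present in more of the upper-*Slc6a3* cells, 72 of 103 against 51 of 106. Per mouse the share was 63.7% ± 18.7 against 43.4% ± 25.7, higher in 7 of 8 mice, with a difference of 20.3 points ± 19.8 (SD) and p = 0.0391 in the exact sign-flip permutation test, unadjusted over the 24 such tests, where 11.5% of the 12452 genes were higher at a p under 0.05. That p rose above the threshold (0.0625–0.0781, exact permutation) when any of mice 1, 2, 3, 4, 5, 6, or 7 was left out. The level of *Trpc6* was 31.3, 82.9, and 160 CPM in upper-*Slc6a3* cells and 4.99, 49.8, and 105 CPM in lower-*Slc6a3* cells, higher in 7 of 8 mice and overlapping, and was not called (log2 fold change 0.84 ± 0.49, adjusted p = 0.632 with edgeR). *Nalcn* averaged 121 ± 31.7 and 106 ± 40.4 CPM, *Trpc4* 31.1 ± 21.3 and 32.6 ± 27.2 CPM, and *Hcn3* 26.2 ± 15.9 and 23.8 ± 22.9 CPM, each higher in upper-*Slc6a3* cells in 4 mice and lower in 4. *Nalcn* had at least 10 reads in 90.8% ± 11.2 of upper and 77.0% ± 15.5 of lower cells per mouse (higher in 6 mice, lower in 1, exact permutation p = 0.125, and p = 0.0312 without mouse 4), and at least 50 reads in 71.4% and 45.8% (higher in 7, lower in 0, p = 0.0156, where 5.86% of all genes were higher at a p under 0.05), while with cells thinned to 500000 reads the share from 10 reads gave p = 0.164. *Hcn3* had at least 10 reads in 45.6% ± 20.4 and 30.0% ± 20.4 of cells (exact permutation p = 0.188), and at least 1 read in 77.0% and 56.5% (higher in 6, lower in 1, p = 0.0312, where 12.7% of all genes were higher), but from 50 reads p was 0.281 and with thinned cells 0.164 (exact permutation). *Hcn4* had 234 reads in upper and 101 in lower cells, and 418 of the 434 reads of *Trpc7* lay in lower-*Slc6a3* cells, 294 of them in mouse 1. The lower-*Slc6a3* cells also carried more reads of other cell types. Oligodendrocyte markers summed to 33.5–3988 CPM per mouse against 4.68–54.3 CPM, and astrocyte markers to 0–1164 against 0–1.40 CPM. GABA neuron markers summed to 2.39–1915 against 2.00–581 CPM, and glutamate neuron markers to 50.9–623 against 21.5–221 CPM. Dissociation genes, which mark no cell type, summed to 144–6962 against 127–1015 CPM. The lower-*Slc6a3* cells held fewer reads per cell (median 737200 against 807145). With each cell thinned to 500000 reads the share of *Trpc6* cells differed by 20.8 points (7 of 8 mice, exact permutation p = 0.0312, with 9.14% of genes higher) and that of *Trpc5* cells by −9.19 points (lower in 6, equal in 2, p = 0.0312, with 2.13% of genes lower). From 1 read the *Trpc5* share differed by −17.3 points (lower in 6 mice, higher in 1, exact permutation p = 0.0312), and 1.16% of genes were lower. The part of the other cell types and of the dissociation genes in the *Trpc5* and *Trpc6* values was not tested.

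**Figure D4:**
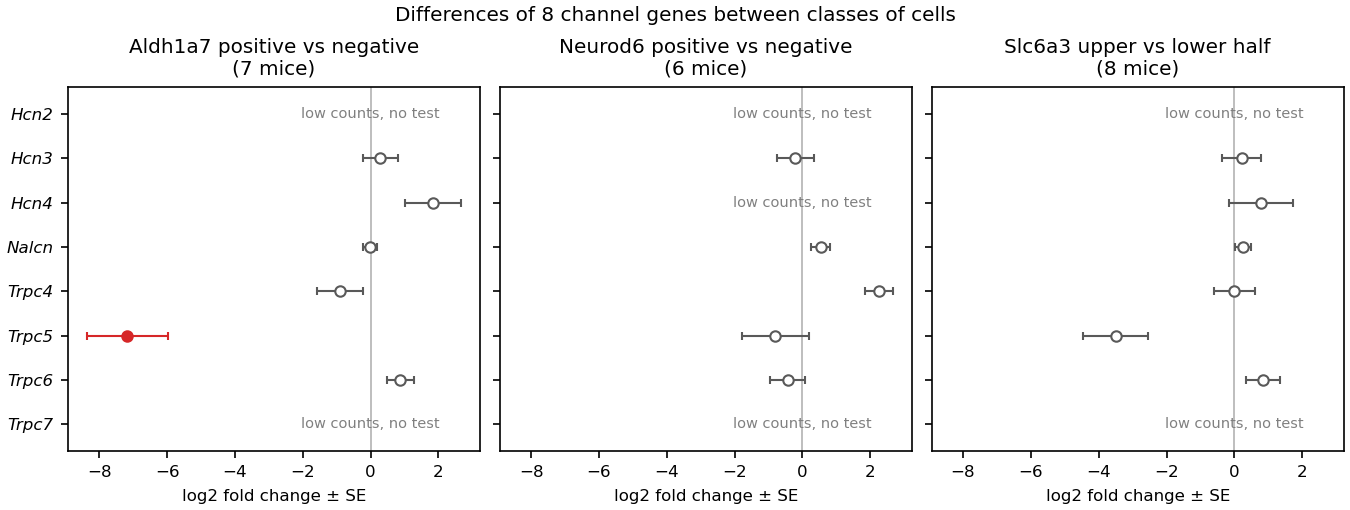
log2 fold change ± SE of each channel gene from edgeR's quasi-likelihood test in the comparisons by *Aldh1a7*, *Neurod6*, and *Slc6a3*. The filled red point (*Trpc5* by *Aldh1a7*, −7.17) is the single one with an adjusted p under 0.05, and genes that did not pass the filter on low counts are marked as not tested.

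Both labels together, each at 10 reads, gave 4 groups of cells. *Trpc4* had at least 10 reads in 6 of the 56 cells with *Aldh1a7* only (10.7%), in 15 of the 18 cells with both genes (83.3%), in 22 of the 31 with *Neurod6* only (71.0%), and in 30 of the 104 with neither (28.8%). *Trpc6* had at least 10 reads in 82.1%, 77.8%, 54.8%, and 44.2% of the same groups. *Nalcn* ran from 80.8% in cells with neither to 100% in cells with both. *Hcn3* was at 55.4% in cells with *Aldh1a7* only, 33.3% in cells with both, 35.5% in cells with *Neurod6* only, and 31.7% in cells with neither. *Trpc5* had at least 10 reads in 4 cells with *Neurod6* only and in 14 cells with neither. Upper-*Slc6a3* cells made up 73.2% of the first group, 88.9% of the second, 38.7% of the third, and 32.7% of the fourth. Cells of these groups come from 7, 5, 7, and 8 mice, and the shares over cells are given without a test.

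The series description gives other numbers of mice per sex and another span of ages than the sample labels, which were used here. No mouse went against its label, with at least 123 reads of *Xist* and at most 2 of the Y-linked *Ddx3y* in each female mouse, against at most 8 and at least 3651 in each male mouse. Between male and female mice no channel gene was called by edgeR (0 of 8, 2 at an unadjusted p under 0.05, as were 8.12% of all genes, against 0.0322% of 15528 genes called). *Trpc6* had 52.4–110 CPM in the 5 male mice and 17.1–62.7 CPM in the 3 female mice (log2 fold change 1.34 ± 0.46, adjusted p = 0.524 with edgeR). The other unadjusted p under 0.05 was that of *Hcn2*, from 145 reads in all. Within the 5 mice captured on the machine used for males and females alike, the log2 fold change of *Trpc6* was 0.91 (adjusted p = 1.00, edgeR).

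A further 32 genes of these pathways were set beside the channel genes: auxiliary subunits, related channel genes, the store-operated calcium entry genes, phospholipase C beta genes, IP3 receptors, and adenylyl cyclases. Of them, 31 were in the count table and 21 passed the filter in each comparison of classes. By *Aldh1a7* status 1 rose and 0 fell: *Plcb4*, a phospholipase C gene downstream of Gq, at 462 ± 56.6 CPM in positive and 266 ± 75.0 CPM in negative cells (log2 fold change 0.94 ± 0.18, adjusted p = 0.0300 with edgeR). With the mouse as a block its adjusted p was 0.0695, and without mouse 2, 5, 6, 7, or 8 it was 0.0665–0.151 (edgeR). The median log2 fold change of the list was 0.02, against 0.0014 over all genes tested. None of the list was called by *Neurod6* or by *Slc6a3* status by edgeR, with 1 and 2 of 21 genes at an unadjusted p under 0.05, against 6.20% and 8.88% of all genes, and DESeq2 called 0 and 1 (*Plcb4*). *Pex5l* had 1.86 ± 2.76 CPM in *Neurod6*-positive and 14.6 ± 11.1 CPM in negative cells (adjusted p = 0.692, edgeR).

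The genes whose levels across cells were most like those of a channel gene were ranked by the mean within-mouse Spearman correlation of CPM over 209 cells of 8 mice. For *Trpc4* these were *Fstl5* (0.44), *Adra1b* (0.39), and *Neurod6* (0.38), for *Trpc5* *Grm8* (0.40), *Opcml* (0.38), and *Htr2c* (0.36), and for *Trpc6* *Rap1gds1* (0.41), *Cplx1* (0.40), and *Hrsp12* (0.38). For *Hcn3* they were *Fgf20* (0.36), *3110047P20Rik* (0.35), and *Pou3f2* (0.35), and for *Nalcn* *Hgsnat* (0.31), *Ankrd16* (0.30), and *Ddc* (0.29). For *Hcn2*, *Hcn4*, and *Trpc7*, read in few cells, the highest values were 0.29, 0.29, and 0.27 (*LOC102634835*, *Epm2aip1*, and *Pcdh20*). Cells of a mouse share its capture run, and cells differ in depth, the level of *Trpc6* itself having a correlation of 0.20 with the reads of a cell, and correlations of this size in sparse counts are given as a description.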

How the data were processed

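Single-cell RNA-seq was made from tdTomato-positive cells of 8 mice with the SMARTer and Nextera XT kits. Per the labels and the study's methods, the authors trimmed reads with Trimmomatic 0.3.2, aligned them with TopHat2 2.1.1 to GRCm38.3, and counted them per RefSeq gene with featureCounts 1.5.0-p3, and reads that fell on several genes were dropped. These counts are the deposited values, not normalized by the authors, in 47082 rows, of which 5721 held no value. Wells with more than 1 cell had been left out by the authors after inspection, and no further doublet step was taken. Libraries of 384 cells held 474–1544810 reads on genes, and cells under 500000 reads were left out. No 2 cells had identical counts.

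Each cell is a deposited sample, and the mouse was the replicate. Reads were summed per mouse and class, with at least 3 cells in each class (10 reads made a cell positive), filtered with filterByExpr, scaled with TMM, and tested with edgeR 4.0.16 (quasi-likelihood test, R 4.3.3), adjusted over all genes tested. DESeq2 1.42.0, limma 3.58.1, and a fit with the mouse as a block were alternatives. Classes of 1 mouse share that mouse: the correlation of their deviations from the class means was 0.0452–0.183 for *Aldh1a7*, 0.0540–0.275 for *Neurod6*, and 0.0512–0.366 for *Slc6a3*. Because fewer than 2 mice held 3 cells under 10 reads of *Slc6a3*, cells were split at the median *Slc6a3* level of their mouse. For shares of cells, the sign of each mouse's difference was permuted exactly, in Python 3.11.15 with scipy 1.17.1. The fits were tested on simulated data, where the share of false calls stood near or under the threshold with edgeR and well above it with DESeq2, in each comparison of classes. These data were drawn independently for each mouse and class with edgeR's dispersion estimates, so they lacked the link between classes of 1 mouse. All 8 channel genes were described, with pathway genes named where they passed the threshold or were complex members, and *Pex5l* and *Trpc1* named after their values were seen. Some results are not reported here. The 3 genes most like each in mean within-mouse rank correlation were taken among genes with 10 reads in at least 20 cells. The channel genes, the pathway list, and the marker lists were chosen with earlier results of these data known. RPKM used exon lengths of GENCODE vM21, and positions and promoters came from RefSeq (GRCm38.p6), with a promoter for 7 of the 8 genes.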

Additional observations from a re-analysis of the deposited data

Results flagged for a closer look

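Of 42 groups of channel gene levels in which a mouse could be set against the rest, 7 held a mouse that stood apart from the others by Dixon's criterion. Its rate of about 1 in 20 holds for independent groups of normally distributed values. These levels were skewed and the groups shared mice and reads, so the 7 cannot be set against that rate. Over all retained cells, *Trpc4* was at 74.1 CPM in mouse 7 (next 36.5), *Trpc5* at 52.37 CPM in mouse 6 (next 9.30), and *Trpc7* at 24.22 CPM in mouse 1 (next 2.64). *Trpc5* stood at 70.97 CPM in the *Aldh1a7*-negative cells of mouse 6 (next 17.9) and at 107.8 CPM in its lower-*Slc6a3* cells (next 19.7). *Trpc4* stood at 144.1 CPM in the *Neurod6*-positive cells of mouse 7 (next 78.2), and *Hcn4* at 8.228 CPM in the lower-*Slc6a3* cells of mouse 1 (next 3.30).

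Data outside the comparisons also held reads. In the 175 cells under 500000 reads, where 3 reads in all would be 0.121 CPM, there were 85 reads of *Hcn2* (3.44 CPM), 1325 of *Hcn3* (53.6 CPM), 50 of *Hcn4* (2.02 CPM), 3089 of *Nalcn* (125 CPM), 578 of *Trpc4* (23.4 CPM), 164 of *Trpc5* (6.63 CPM), 2186 of *Trpc6* (88.4 CPM), and 43 of *Trpc7* (1.74 CPM). Among the transgene entries of the retained cells, tdTomato had 2437 reads, in 187 cells, and CreER had 6021 reads, in 138 cells.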

How the results depend on the processing

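Of the log2 fold changes of channel genes computed under an alternative, 396 kept their direction and their side of the threshold, 8 no longer passed it, 3 newly passed it, and 39 changed sign, and the cause of these changes was not tested. Genes called by *Aldh1a7* status (52) became 29 with the mouse as a replicate block, 554 with DESeq2, 143 with limma, 14 with status from 1 read, 129 with cells of at least 100000 reads, 11 with at least 750000, 15 with at least 5 cells per class, 1 in lane 1, 21 in lane 2, 14 in cells of at least 1000 CPM of *Th* (chosen after seeing the data), and 14–87 without a mouse (14 without mouse 2, 87 without mouse 3, 33 without mouse 4, 18 without mouse 5, 23 without mouse 6, 27 without mouse 7). Genes called by *Neurod6* status (7) became 1 with the block, 338 with DESeq2, 4 with its size factors, 42 with limma, 3 with no filter on low counts, with status from 50 reads, or with at least 5 cells, 12 from 100000 reads or against *Aldh1a7*-positive cells, 0 in lane 1, 1 in lane 2 or by *Th*, and 1–18 without a mouse (18 without mouse 3). Genes called by *Slc6a3* (1) became 7 with the block, 258 with DESeq2, 2 with no filter, 0 from 100000 reads, from 750000 reads, in lane 1, or by *Th*, and 1–20 without a mouse (20 without mouse 3). By sex (5) there were 318 with DESeq2 and 0 on the machine that ran both sexes.

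*Trpc5* by *Aldh1a7* lost its call with the block (−7.09), status from 1 read (−3.49), at least 5 cells (−6.50), and in either lane (−5.69, −8.42), and ranged from −8.69 to −6.01 without a mouse and from −8.69 to −1.13 over all alternatives, the last being the limma difference on the log2(CPM + 1) scale of cells. It did not pass the filter from 750000 reads or by *Th*. *Trpc4* by *Neurod6* passed with DESeq2 (2.28) and limma (3.03), and *Trpc5* by *Slc6a3* with DESeq2 (−3.50). The block changed no other call of a channel gene.

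Signs turned for the following log2 fold changes, none of them called. By *Aldh1a7*, *Hcn3* was −0.12 in lane 1, and *Nalcn* was 0.014 with the block, 0.15 with status from 1 read, 0.0016 from 100000 reads, 0.15 with at least 5 cells, and 0.14 in lane 1. By *Neurod6*, *Hcn3* was 0.096 with the block, 0.050 from 100000 reads, and 0.12 in lane 2, and *Trpc5* 0.30 in lane 1 and 0.030 by *Th*. By *Slc6a3*, *Hcn4* was −0.37 in lane 1, *Nalcn* −0.015 from 750000 reads and −0.14 by *Th*, and *Trpc4* −0.0017 with DESeq2 size factors, −0.069 from 100000 reads, −0.44 in lane 2, and −0.30 by *Th*. By sex, *Hcn3* was 0.074 from 100000 reads, and *Nalcn* −0.18 on the shared machine. Without a mouse, *Hcn3* ranged from −0.15 to 0.55 (*Aldh1a7*), −0.46 to 0.13 (*Neurod6*), −0.14 to 0.72 (*Slc6a3*), and −0.58 to 0.46 (sex), *Nalcn* from −0.13 to 0.059 (*Aldh1a7*) and −0.065 to 0.24 (sex), and *Trpc4* from −0.30 to 0.25 (*Slc6a3*). By sex, *Hcn4* ranged from −1.25 to 0.081, *Trpc5* from −2.45 to 0.063, and *Trpc7* from −4.65 to 1.13.

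Differences in share turned sign (in points) by *Aldh1a7* for *Hcn2* from 1 read (−1.02) and thinned to 500000 reads (−0.508), and for *Nalcn* from 1 read (1.46) and 50 reads (12.4). By *Neurod6* they turned for *Hcn2* from 1 read (−2.45), *Hcn3* from 50 reads (1.25), *Trpc5* from 1 read (−0.211), 50 reads (−2.82), and thinned (−0.113), and *Trpc6* from 1 read (2.37). By *Slc6a3* they turned for *Hcn2* thinned (−0.274), *Hcn4* from 50 reads (−0.731), and *Trpc4* from 50 reads (−3.26). Without a mouse, the ranges were −0.593 to 0.879 for *Hcn2* and −10.7 to 3.41 for *Nalcn* (*Aldh1a7*), −1.97 to 2.17 for *Hcn2*, −6.20 to 7.51 for *Hcn3*, and −0.929 to 6.03 for *Trpc5* (*Neurod6*), and −0.854 to 1.84 for *Hcn2* and −0.482 to 9.09 for *Trpc4* (*Slc6a3*). *Trpc4* by *Neurod6* kept 48.3–56.1 points, where 5 mice cannot reach the threshold, and *Trpc6* by *Slc6a3* 17.2–26.2 points. From 1 read, *Trpc6* lost the threshold by *Aldh1a7* (13.8) and *Slc6a3* (18.6), and *Trpc5* passed it by both (−29.1, −17.3), as did *Hcn3* (20.4), *Hcn4* (12.5), and *Nalcn* (8.44) by *Slc6a3*, where 12.7% of all genes were higher and 1.16% lower. From 50 reads *Nalcn* passed it by *Slc6a3* (25.6) and *Neurod6* (17.5), with 5.86% and 1.58% of genes higher, and thinned to 500000 reads *Trpc5* passed it by *Slc6a3* (−9.19).

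Splits of *Slc6a3* at 1, 10, or 50 reads were not run, since fewer than 2 mice held 3 cells in each class. *Hcn2*, *Hcn4*, *Trpc5*, and *Trpc7* were each read in under 50 of 209 cells, which limits what this depth can show for them.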
